A study of Homo sapiens with 12 samples.

Results

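The genes described here are interferon-stimulated genes, a list of 45 human genes whose transcripts are known to be induced by interferons. They were read in NCI-H1299, a long-used line from a human lung tumour of the non-small cell type, on 12 Affymetrix HG-U133 Plus 2.0 arrays. Each gene was represented by 1 probe set, the one with the highest mean over the 12 arrays among probe sets that the platform annotation assigns to a single gene. In this way 44 of the 45 listed genes had a value, out of 19775 genes in all, and STAT2 was not analysed here. The list was chosen with earlier results of these data known, so its shares beside those of all genes are descriptions.

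There were 4 groups of 3 samples. Spheroid xenografts were tumours grown from NCI-H1299 cells taken as floating spheroids from stem-cell medium, and parental xenografts were tumours grown from the same line kept in medium with serum. Spheroid cultures were the floating cells themselves, collected after 7 to 10 days in stem-cell medium and moved to flasks that prevent attachment, and parental cultures were the adherent cells in serum. All groups share 1 cell line, so they differ in culture history and in growth in an animal, not in donor. The sources used here name neither the host animal nor the number of animals. The titles call the samples biological replicates without saying whether every tumour had an animal of its own, so p-values weigh only the scatter among these samples, some of it possibly technical.

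Interferons are secreted proteins that bind receptors on the cell surface and activate Janus kinases, which for type I and type III interferons are JAK1 and TYK2. Type I and type III interferons then drive a complex that contains STAT2 and IRF9 into the nucleus, where it binds the interferon-stimulated response element (ISRE), while interferon gamma acts mainly through another DNA element, the gamma activated site (GAS). The induced proteins sense foreign RNA, block the steps of viral replication, and modify other proteins with the ubiquitin-like protein ISG15. Tumour cells, including carcinoma lines, can carry such genes at a raised level without infection, which is why the set is often followed in cancer.

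Promoters are shown for some of the genes described below, chosen among those with a match to the ISRE. Genes without a match, among them UBE2L6, IFI35 and IRF9, are not printed. Sequences are RefSeq promoters on GRCh38.p14, from 250 bases before to 50 bases after a gene's start, and 37 of the 44 genes had such a window. The ISRE was searched as GAAANNGAAA and the GAS as TTCNNNGAA, each on both strands, and an ISRE and a GAS match may overlap. In the lines that follow, each stretch runs 5′ to 3′ on the gene's strand with 15 bases on either side of the outermost match, PARP14 is shown over its whole window, and capitals mark the ISRE matches, which begin with TTTC where the match is on the other strand. The stretches lie at chr3:122680589-122680888 (plus strand) for PARP14, chr1:1013369-1013414 (plus) for ISG15, chr1:27672261-27672363 (minus) for IFI6, chr10:89392492-89392544 (plus) for IFIT1, chr19:17405730-17405775 (minus) for BST2, chr12:112938316-112938486 (plus) for OAS3, chr3:122564317-122564356 (plus) for DTX3L and chr10:89414508-89414588 (plus) for IFIT5.
PARP14: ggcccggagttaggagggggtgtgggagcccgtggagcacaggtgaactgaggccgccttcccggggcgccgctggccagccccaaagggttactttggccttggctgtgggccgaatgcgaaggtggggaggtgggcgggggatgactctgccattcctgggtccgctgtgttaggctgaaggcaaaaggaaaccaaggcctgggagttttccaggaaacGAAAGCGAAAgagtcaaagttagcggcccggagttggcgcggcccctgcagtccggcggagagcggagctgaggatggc
ISG15: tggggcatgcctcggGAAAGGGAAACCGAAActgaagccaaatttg
IFI6: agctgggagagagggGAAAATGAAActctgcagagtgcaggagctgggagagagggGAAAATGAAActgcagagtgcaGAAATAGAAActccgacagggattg
IFIT1: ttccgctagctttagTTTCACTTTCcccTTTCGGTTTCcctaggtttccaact
BST2: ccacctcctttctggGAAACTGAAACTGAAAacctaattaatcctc
OAS3: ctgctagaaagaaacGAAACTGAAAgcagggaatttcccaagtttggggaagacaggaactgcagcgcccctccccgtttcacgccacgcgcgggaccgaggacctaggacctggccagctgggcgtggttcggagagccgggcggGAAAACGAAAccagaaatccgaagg
DTX3L: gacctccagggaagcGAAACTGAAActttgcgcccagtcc
IFIT5: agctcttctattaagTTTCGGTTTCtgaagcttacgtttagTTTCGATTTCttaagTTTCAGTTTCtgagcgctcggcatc

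An ISRE match was present in the windows of 26 of the 37 genes (70.3%), against 1195 of 27305 genes (4.38%) over all RefSeq promoters of the same length. A GAS match was present in 12 of the 37 genes (32.4%), against 2560 of all 27305 genes (9.38%). ISG15 and BST2 each hold 2 overlapping ISRE matches, IFIT1 holds 2 separate ones, and IFI6 and IFIT5 hold 3. PARP14 has 1 ISRE match 29 bases before its start, and 1 GAS match that begins 40 bases before the start. PARP9 and DTX3L, which are transcribed away from each other, share a single ISRE match, which begins 6 bases before the start of DTX3L and spans it. No ISRE match was found in the windows of IRF9, IRF1, RIGI, UBE2L6, SP110, IFI35 and 5 others, and these letters are a description of the window, not a mapped binding site. Among genes with a window whose 3 spheroid xenografts lay above the 3 parental xenografts, 9 of 13 (69.2%) held an ISRE match, against 17 of 24 (70.8%) of the others. A GAS match was held by 6 of the 13 (46.2%), against 6 of the 24 (25%).

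The values are log2 expression values, so a difference of 1 is a doubling. Levels of different genes come from different probes and are not set against each other. Taking all deposited values together, the lower quartile was 4.73, and 8 of the 44 genes had a mean below it, among them TRIM22, CMPK2 and IFI44L, so that little or no signal was read for them. Parental culture 1 and parental culture 2 stood apart from the other arrays. Parental culture 2 had the widest interquartile range (3.44, against 2.82 to 3.29 on the other 11 arrays). Parental culture 1 had the highest 3′ to 5′ signal difference for GAPDH (0.493, against 0.019 to 0.129), and the 18S rRNA control probe set read 6.96 on parental culture 1, 10.5 on parental culture 2 and 12.2 to 13.3 elsewhere. Array values correlated within groups at 0.956 to 0.994 and between groups at 0.953 to 0.988.

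Spheroid xenografts held the highest mean of the 4 groups for 23 of the 44 genes (52.3%), against 20.7% of all genes. Parental xenografts were highest for 1 (2.27%, against 19% of all genes), spheroid cultures for 11 (25%, against 36.9%) and parental cultures for 9 (20.5%, against 23.4%). For 11 genes (25%) the 3 spheroid xenografts lay above all 9 other arrays, a pattern shown by 1.51% of all genes. These 11 were ISG15, USP18, IFIT1, IFI6, OAS3, MX1, RIGI, IFIH1, IRF7, IRF9 and PARP14. They include a ubiquitin-like modifier and its protease, RNA sensors, transcription factors and antiviral effectors.

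**Figure D1:**
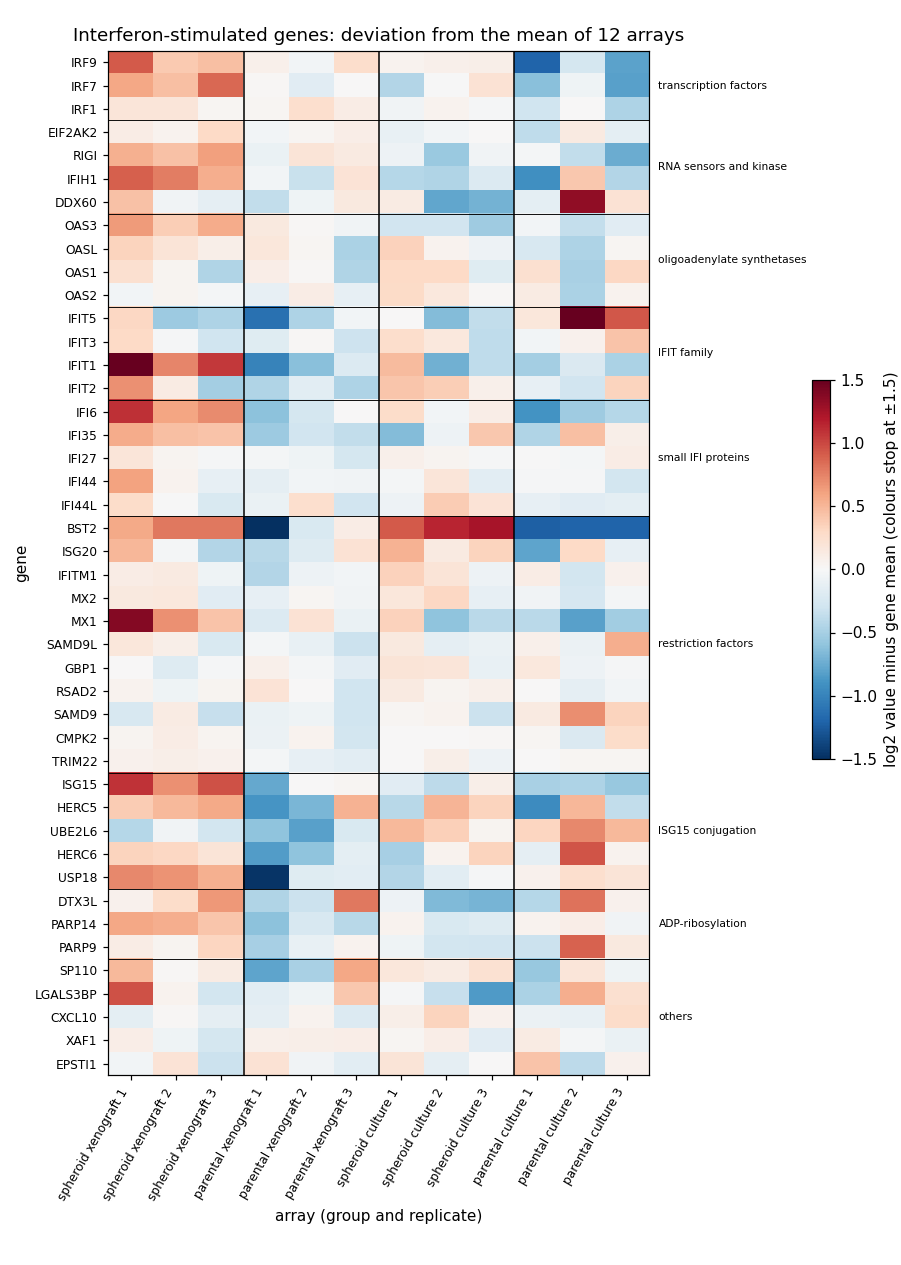
Each row is 1 of the 44 interferon-stimulated genes, grouped by role, and each column is 1 array, ordered as spheroid xenografts, parental xenografts, spheroid cultures and parental cultures. Colour is the log2 value minus the gene's mean over 12 arrays, with colours stopping at ±1.5. ISG15, IFIT1, IFI6, MX1, USP18 and PARP14 are red in the first 3 columns and mostly pale or blue elsewhere, with IFIT1 (6.64) and MX1 light red on spheroid culture 1, BST2 is red in both spheroid groups, and parental culture 2 is red for IFIT5, DDX60, HERC6 and PARP9.

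Spheroid xenografts were first set against parental xenografts, which asks whether tumours from spheroid cells differ from tumours from parental cells. Of the 44 genes, 40 had a higher mean in spheroid xenografts and 4 a lower one, with a median difference of 0.27, against 0.02 over all genes. For 16 genes (36.4%) the 3 spheroid xenografts lay above the 3 parental xenografts, against 9.3% of all genes, and for none did they lie below, against 7.21% of all genes. The 16 were the 11 genes just named with BST2, IFI35, HERC6, IFI27 and TRIM22. Only PARP14 passed the test at an adjusted p under 0.05 in the limma fit across all genes (1 of 44, against 0.233% of all genes, 46 of 19775). IFI6 and IFIT1 (both adjusted p = 0.0549) and ISG15 (adjusted p = 0.0582, limma) missed it. At an unadjusted p under 0.05, 14 of the 44 genes were higher and 0 lower, against 672 higher and 780 lower over all genes.

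Xenograft arrays with the same replicate number deviated together from their group means, a pairing read from these values that the titles do not state. The same comparison was then fitted with the replicate as a block on the 6 xenograft arrays alone. There 4 genes passed, all higher in spheroid xenografts, against 2.48% of all genes. Because the block was chosen from the same values, its adjusted p-values may be too small. The 6 arrays without the block gave 3 genes, against 0.814% of all genes, and the block on all 12 arrays gave 1, against 0.217%. The 4 genes of the block fit on 6 arrays were PARP14 (difference 0.94, SE 0.13, limma adjusted p = 0.0253), IFI35 (0.88, SE 0.12, limma adjusted p = 0.0257), IRF7 (0.68, SE 0.11, limma adjusted p = 0.0435) and IFIT1 (1.83, SE 0.32, limma adjusted p = 0.0455). Without spheroid xenograft 1, 2 or 3 or parental xenograft 1 or 2, no gene passed the unblocked fit, and the limma adjusted p of PARP14 was then 0.0645 to 0.171 with a difference of 0.84 to 1.03. Without parental xenograft 3 or parental culture 1, 2 genes passed (against 0.303% and 0.263% of all genes), without spheroid culture 1, 3 passed (0.536%), and without parental culture 2, 4 passed (0.708%).

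**Figure D2:**
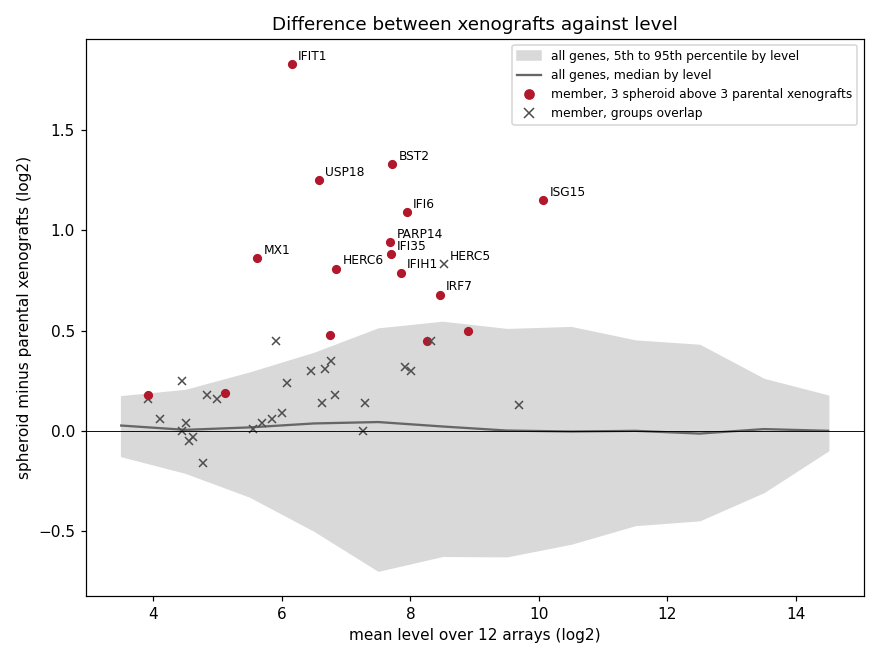
The y axis is the spheroid minus parental difference between xenografts (log2) and the x axis is the mean log2 level over 12 arrays, with 1 symbol per interferon-stimulated gene. Filled circles are the 16 genes whose 3 spheroid xenografts lay above the 3 parental xenografts, crosses are genes whose groups overlap, and the grey band and line are the 5th to 95th percentile and the median of all genes by level. IFIT1 (1.83), BST2 (1.33), USP18 (1.25), ISG15 (1.15) and IFI6 (1.09) lie above the band.

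ADP-ribosylation genes act in the interferon response by tagging proteins, and PARP14, a mono-ADP-ribosyltransferase, had 8.27, 8.24 and 8.11 in spheroid xenografts, against 7.08, 7.45 and 7.28 in parental xenografts. It had 7.74, 7.46 and 7.50 in spheroid cultures and 7.74, 7.79 and 7.64 in parental cultures. The 3 spheroid xenografts were thus the highest of all arrays and the 3 parental xenografts the lowest. The difference between xenografts was 0.94 (SE 0.14, 1.92-fold, limma adjusted p = 0.0243). A second, dimmer PARP14 probe set (mean 5.31) gave 0.03 in the same comparison, and with the mean of both probe sets the difference was 0.49 (limma adjusted p = 0.102). PARP9 and DTX3L form a complex of an ADP-ribosyltransferase and a ubiquitin ligase. PARP9 averaged 6.93 ± 0.15 in spheroid xenografts and 6.58 ± 0.28 in parental xenografts, and DTX3L 8.24 ± 0.30 and 7.92 ± 0.68, with overlapping groups in both (SD, n = 3 each). In culture PARP9 was at 7.65 on parental culture 2, against 6.44 and 6.91 on the other parental cultures.

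ISG15, the modifier itself, had 11.15, 10.75 and 11.03 in spheroid xenografts, against 9.30, 10.08 and 10.10 in parental xenografts. In culture it had 9.90, 9.68 and 10.16 in spheroid cells, against 9.58, 9.61 and 9.50 in parental cells. Every spheroid xenograft was above every other array for ISG15. USP18, the protease that removes ISG15 from proteins and damps type I interferon signalling at its receptor, had 7.30, 7.26 and 7.11 in spheroid xenografts, against 5.11, 6.40 and 6.42 in parental xenografts. It had 6.14, 6.43 and 6.57 in spheroid cultures, against 6.65, 6.83 and 6.77 in parental cultures. Between xenografts the difference was 1.15 (SE 0.22, limma adjusted p = 0.0582) for ISG15. For USP18 it was 1.25 (SE 0.29, limma adjusted p = 0.126), and parental xenograft 1, at 5.11, was the lowest of the 12 arrays.

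ISG15 is attached to proteins by a conjugating enzyme and ligases. HERC5, the main ISG15 ligase in human cells, had 8.90, 9.01 and 9.09 in spheroid xenografts, against 7.64, 7.83 and 9.04 in parental xenografts. Parental xenograft 3 was inside the range of the spheroid xenografts, so the groups overlap, and the difference of 0.83 (SE 0.40) had a limma adjusted p of 0.735. HERC6, its relative, had 7.19, 7.16 and 7.05 in spheroid xenografts, against 6.01, 6.25 and 6.71 in parental xenografts (difference 0.81, SE 0.29, limma adjusted p = 0.434). UBE2L6, the conjugating enzyme of ISG15, had 7.59, 7.96 and 7.74 in spheroid xenografts, against 7.41, 7.20 and 7.78 in parental xenografts. In culture it had 8.50, 8.37 and 8.05 in spheroid cells and 8.33, 8.73 and 8.50 in parental cells. For UBE2L6 all 6 cultures were above all 6 xenografts.

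Among the transcription factors, IRF9, which gives the ISRE-binding complex its sequence preference, had 9.82, 9.29 and 9.35 in spheroid xenografts, against 8.97, 8.85 and 9.16 in parental xenografts. In culture it had 8.95, 8.97 and 8.99 in spheroid cells, against 7.69, 8.63 and 8.09 in parental cells. IRF9 ran in the same order as the groups, with spheroid xenografts highest, parental xenografts and spheroid cultures alike in range, and parental cultures lowest without overlap. The difference was 0.50 (SE 0.22, limma adjusted p = 0.651) between xenografts and 0.83 (SE 0.22, limma adjusted p = 0.0751) between cultures. IRF7, which drives type I interferon genes, averaged 9.09 ± 0.21 in spheroid xenografts, 8.41 ± 0.11 in parental xenografts, 8.39 ± 0.33 in spheroid cultures and 7.96 ± 0.39 in parental cultures (SD, n = 3 each). IRF1, a factor downstream of interferon gamma, averaged 7.39 in both xenograft groups, with a difference of 0.00 (SE 0.14).

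The cytoplasmic RNA sensors RIGI and IFIH1 both peaked in spheroid xenografts. IFIH1, which detects long double-stranded RNA, had 8.75, 8.62 and 8.40 in spheroid xenografts, against 7.81, 7.52 and 8.06 in parental xenografts. It had 7.42, 7.40 and 7.64 in spheroid cultures, against 6.93, 8.25 and 7.41 in parental cultures, where parental culture 2 was the high one. RIGI averaged 8.78 ± 0.091 in spheroid xenografts, 8.34 ± 0.15 in parental xenografts, 8.03 ± 0.28 in spheroid cultures and 7.87 ± 0.35 in parental cultures (SD, n = 3 each). The spheroid minus parental difference between xenografts was 0.79 (SE 0.27, limma adjusted p = 0.401) for IFIH1 and 0.45 (SE 0.20, limma adjusted p = 0.635) for RIGI. The other 2 probe sets of IFIH1 gave 0.51 and 0.44, and the other 2 of RIGI 0.87 and 0.35, in the same direction. EIF2AK2, the kinase that halts translation on double-stranded RNA, stayed between 9.31 and 9.99 on all 12 arrays, and the difference between xenografts was 0.13 (SE 0.15). DDX60, a helicase of the same response, lay at 4.07 to 6.18, with its highest value on parental culture 2.

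The oligoadenylate synthetases make the messenger that activates RNase L. OAS3 had 7.39, 7.12 and 7.31 in spheroid xenografts, against 6.90, 6.77 and 6.70 in parental xenografts. It had 6.47, 6.46 and 6.22 in spheroid cultures, against 6.71, 6.40 and 6.58 in parental cultures. Spheroid xenografts lay above all other arrays for OAS3, and its second, dimmer probe set (mean 5.29) gave -0.01 between xenografts. OAS1, OAS2 and OASL lay at 5.35 to 6.15, 5.21 to 5.97 and 5.98 to 6.80 over all arrays. Their groups overlapped between xenografts, with differences of 0.06, 0.04 and 0.30.

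IFIT proteins bind foreign RNA and block its translation, and IFIT1 had the largest difference between xenografts among the 44 genes. It had 8.04, 6.89 and 7.22 in spheroid xenografts, against 5.16, 5.54 and 5.96 in parental xenografts. In culture it had 6.64, 5.44 and 5.78 in spheroid cells, against 5.65, 5.94 and 5.69 in parental cells. The lowest spheroid xenograft was above the highest other array, spheroid culture 1 at 6.64, and the difference between xenografts was 1.83 (SE 0.34, 3.55-fold, limma adjusted p = 0.0549). IFIT5 had another order. It had 6.98, 6.12 and 6.21 in spheroid xenografts and 5.55, 6.21 and 6.63 in parental xenografts, against 6.84, 8.89 and 7.60 in parental cultures. Parental cultures 2 and 3 were its highest arrays. IFIT2 and IFIT3 stayed within 5.40 to 6.59 and 6.24 to 7.04, with overlapping groups between xenografts and differences of 0.45 and 0.14. A second, dimmer probe set of IFIT3 (mean 5.12) gave -1.49 between cultures, 0.45 between xenografts, -1.35 in parental xenografts against parental cultures and 0.59 in spheroid xenografts against spheroid cultures, and the chosen one gave -0.14, 0.14, -0.30 and -0.02.

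Among the small interferon-induced proteins, IFI6, which resides in internal membranes and limits viral replication, had 9.03, 8.53 and 8.65 in spheroid xenografts, against 7.32, 7.68 and 7.94 in parental xenografts. It had 8.22, 7.90 and 8.04 in spheroid cultures, against 7.04, 7.41 and 7.51 in parental cultures. Spheroid arrays were above parental arrays in both settings without overlap, and the difference between xenografts was 1.09 (SE 0.20, 2.13-fold, limma adjusted p = 0.0549). IFI35 had 8.25, 8.15 and 8.13 in spheroid xenografts, against 7.16, 7.41 and 7.33 in parental xenografts. In culture it was scattered, at 7.05, 7.62 and 8.10 in spheroid cells, against 7.25, 8.15 and 7.79 in parental cells. IFI27, IFI44 and IFI44L were low everywhere, at 3.82 to 5.31 over all arrays, and their differences between xenografts were 0.19, 0.25 and 0.06.

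The restriction factors, proteins that block single steps of viral growth, held the largest difference in culture. BST2 (tetherin), which holds budding virus at the cell surface, had 8.29, 8.51 and 8.51 in spheroid xenografts, against 6.0, 7.49 and 7.83 in parental xenografts. In culture it had 8.64, 8.86 and 8.95 in spheroid cells, against 6.49, 6.52 and 6.51 in parental cells. All 6 spheroid arrays were above all 6 parental arrays. The difference was 1.33 (SE 0.35, limma adjusted p = 0.203) between xenografts, where the 3 parental tumours were far apart, and 2.31 (SE 0.35, limma adjusted p = 0.0072) between cultures. MX1, a GTPase that traps viral nucleocapsids, averaged 6.45 ± 0.49 in spheroid xenografts, 5.59 ± 0.22 in parental xenografts, 5.40 ± 0.50 in spheroid cultures and 5.04 ± 0.21 in parental cultures (SD, n = 3 each). MX2, IFITM1 and ISG20 had overlapping xenograft groups and differences of 0.09, 0.24 and 0.14. SAMD9, SAMD9L, GBP1, RSAD2, CMPK2 and TRIM22 lay between 3.65 and 5.54 on every array, with differences between xenografts of -0.03 to 0.18.

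Of the remaining genes, SP110, a nuclear body protein, averaged 8.54 ± 0.25 in spheroid xenografts and 8.09 ± 0.72 in parental xenografts (SD, n = 3 each), with overlapping groups. LGALS3BP, a secreted glycoprotein, ranged over 6.55 to 7.78 in spheroid xenografts and 6.67 to 7.24 in parental xenografts. CXCL10, a chemokine that draws T cells, was between 5.34 and 5.88 on all 12 arrays, with a difference between xenografts of 0.01. XAF1 and EPSTI1 lay at 4.50 to 4.89 and 4.17 to 4.99, and both had a lower mean in spheroid xenografts, by -0.16 and -0.05. Among the 8 dim genes only TRIM22 had xenograft groups that did not overlap, with a difference of 0.18 (SE 0.12).

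**Figure D3:**
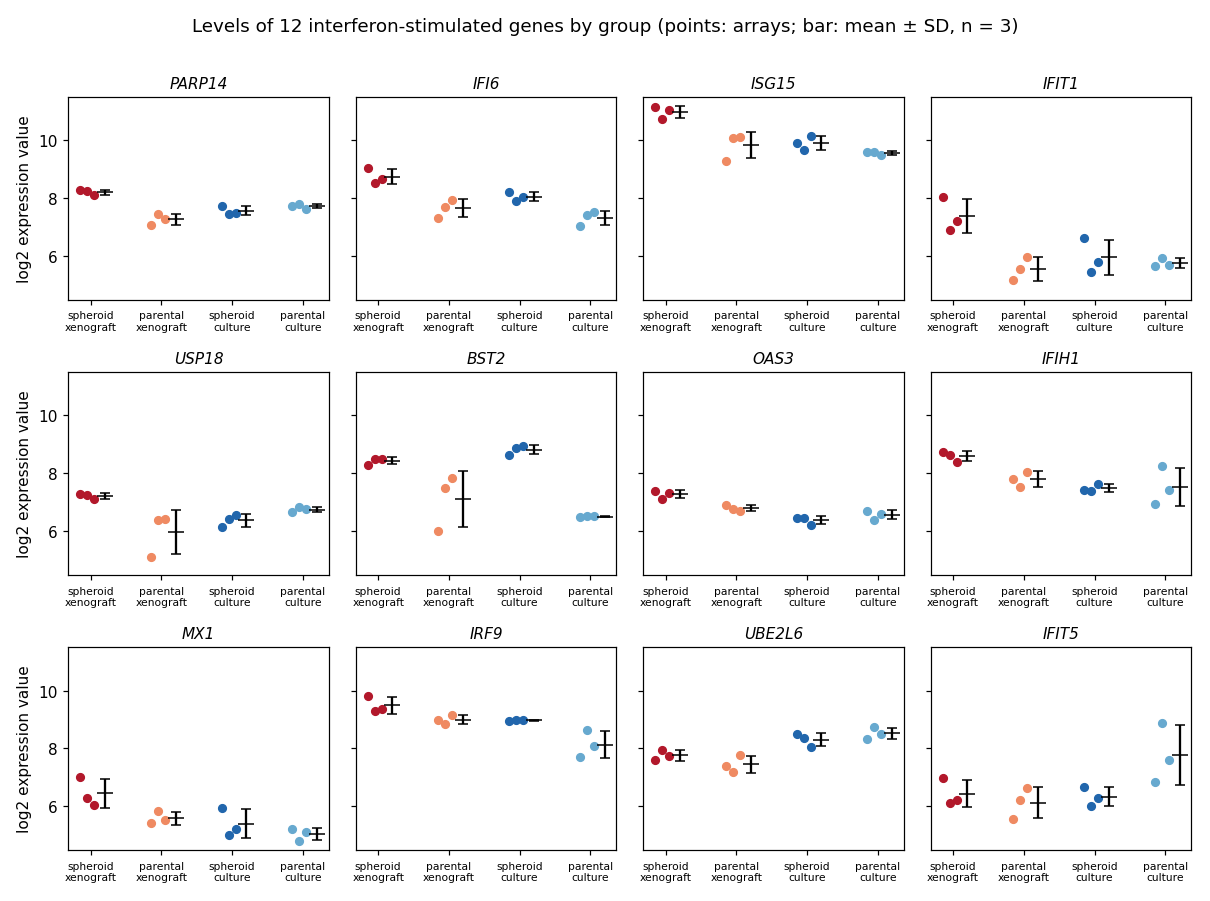
Each panel is 1 gene and each point 1 array (log2 expression value), with the mean ± SD of 3 arrays beside the points, for spheroid xenografts, parental xenografts, spheroid cultures and parental cultures. PARP14, IFI6, ISG15, IFIT1, USP18, OAS3, IFIH1, MX1 and IRF9 are highest in spheroid xenografts, BST2 is high in both spheroid groups, UBE2L6 is lower in both xenograft groups and IFIT5 is highest and most scattered in parental cultures.

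Spheroid cultures were next set against parental cultures, which asks whether the cells differ before they are grown in an animal. BST2 was the only gene of the 44 to pass, 4.97-fold higher in spheroid cultures (limma adjusted p = 0.0072), against 2.46% of all genes (487 of 19775). The 44 genes were divided, 25 with a higher and 19 with a lower mean in spheroid cultures, with a median difference of 0.09, against 0.07 over all genes. The 3 spheroid cultures lay above the 3 parental cultures for 6 genes (13.6%), against 7.21% of all genes. These were BST2, IRF9, IFI6 (difference 0.73, SE 0.20, limma adjusted p = 0.0839), ISG15 (0.35, SE 0.22, limma adjusted p = 0.547), IFI44L and RSAD2. They lay below for 3 genes (6.82%), IFIT5, SAMD9 and USP18, against 6.56% of all genes. IFIT5 had 6.67, 6.02 and 6.30 in spheroid cultures (difference -1.45, SE 0.45, limma adjusted p = 0.129), and without parental culture 2 the difference was -0.89. Without parental culture 1, 1 gene passed as higher and 1 as lower, against 4.31% of all genes. With parental culture 2 left out, 2 passed as higher, against 3.86% of all genes.

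Parental xenografts were set against parental cultures to ask what growth in an animal did to parental cells. UBE2L6 was the only gene of the 44 to pass, at 0.481 times its culture level (difference -1.06, SE 0.19, limma adjusted p = 0.0121), against 3.47% of all genes. Of the 44 genes, 19 had a higher and 25 a lower mean in parental xenografts, with a median of -0.07, against -0.01 over all genes. The 3 parental xenografts lay above the 3 parental cultures for IRF9, IRF1 and MX1 (6.82%), against 7.37% of all genes. They lay below for 7 genes (15.9%), against 6.28% of all genes, among them UBE2L6, PARP14 (difference -0.46, SE 0.14, limma adjusted p = 0.116), IFIT5 (-1.65, SE 0.45, limma adjusted p = 0.0712, and -1.09 without parental culture 2), HERC6 and USP18. UBE2L6 no longer passed in 4 of 26 alternatives. Its limma adjusted p was 0.104 on the 6 parental arrays alone, 0.228 on them with the replicate block, 0.067 with parental cultures 1 and 2 both left out (difference -1.03) and 0.0608 without parental xenograft 2 (difference -0.93). No gene passed without parental xenograft 2, against 1.25% of all genes. Without parental xenograft 1, 1 passed as higher and 1 as lower (against 1.97% of all genes). With parental culture 1 left out, 2 passed as lower (3.92%), and with parental culture 2 left out, 2 passed as higher and 1 as lower (8.05%). Of 12 fibroblast markers 3 passed, FAP (difference 2.20), COL3A1 (2.06) and POSTN (0.84), all higher in parental xenografts, and over the 12 the median was 0.10, with 9 at or above 0 and 3 below. The keratins KRT8 (-1.77) and KRT18 (-1.71) were lower in parental xenografts. The limma adjusted p of these 5 genes was 8.5e-04 to 0.0191, and their part in the difference of UBE2L6 was not tested.

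Spheroid xenografts were set against spheroid cultures to ask the same of spheroid cells. The 3 xenografts lay above the 3 cultures for 16 genes (36.4%), against 8.85% of all genes, and below for 3 (6.82%), UBE2L6, BST2 and CXCL10, against 9.85% of all genes. The 16 hold the RNA sensors RIGI and IFIH1, the kinase EIF2AK2, the factors IRF7 and IRF9, OAS3, IFIT1, MX1, IFI6, IFI35, ISG15, USP18, all 3 ADP-ribosylation genes and the dim gene CMPK2. Second, dimmer probe sets gave -0.18 for PARP14, 0.02 for PARP9 and 0.12 for OAS3, against 0.64, 0.37 and 0.89 for the chosen ones. The other probe sets of IFIH1 gave 0.73 and 0.39, those of RIGI 0.63 and 0.75, and those of EIF2AK2 0.09 and 0.07. None of the 44 genes passed the limma fit, against 0.0202% of all genes (4 of 19775), and OAS3 came nearest (difference 0.89, SE 0.14, 1.85-fold, limma adjusted p = 0.0595). At an unadjusted p under 0.05, 13 of the 44 genes were higher and 1, UBE2L6, lower, against 907 higher and 554 lower over all genes. The median difference was 0.10, against -0.05 over all genes. Of the 12 fibroblast markers none passed here, 5 were above and 7 below 0, and the median was -0.05. COL3A1 had 6.41, 6.14 and 7.27 in spheroid xenografts, against 5.40, 5.43 and 5.19 in spheroid cultures (difference 1.27, SE 0.37, limma adjusted p = 0.328). POSTN also lay higher without overlap (difference 0.39, SE 0.16, limma adjusted p = 0.618), and the part of these markers in the members' differences was not tested.

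Spheroid arrays with the same replicate number also deviated together, again a pairing read from these values that the titles do not state. With the replicate as a block on the 6 spheroid arrays alone 10 genes passed, all higher in spheroid xenografts, against 2.99% of all genes. The block was chosen from the same values that it is fitted to, so its adjusted p-values may be too small. The 6 arrays without the block gave 3 genes, against 0.592% of all genes, and the block on all 12 arrays gave 0, against 0.0405%. In the block fit on 6 arrays the lowest limma adjusted p was that of IFIT1 (difference 1.43, SE 0.11, limma adjusted p = 0.00547), followed by ISG15 (1.06, limma adjusted p = 0.0109), MX1 (1.06, limma adjusted p = 0.013) and IFIH1 (1.10, limma adjusted p = 0.015). OAS3, RIGI, IFI6, USP18, PARP14 and IRF7 made up the rest, at limma adjusted p of 0.0185 to 0.0478. Without the block, leaving out parental culture 2 gave 2 genes, against 0.288% of all genes, and each of the other 11 omissions gave 0. BST2 was at 8.29 to 8.51 in spheroid xenografts, against 8.64 to 8.95 in spheroid cultures (difference -0.38, SE 0.35), and the differences of UBE2L6 and CXCL10 were -0.54 (SE 0.19) and -0.25 (SE 0.15).

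The spheroid to parental difference in xenografts was then compared with that in culture, as an interaction term of the same fit. It was above 0 for 30 of the 44 genes, with a median of 0.22, against -0.04 over all genes. No gene passed (0 of 44, against 0.137% of all genes). At an unadjusted limma p under 0.05, 9 genes were above 0 and 0 below, against 747 and 718 over all genes. PARP14 came nearest, at 1.10 (SE 0.20, limma adjusted p = 0.0606), followed by USP18 at 1.61 (SE 0.41, limma adjusted p = 0.205), IFIT1 at 1.64 (SE 0.48, limma adjusted p = 0.304) and OAS3 at 0.66 (SE 0.20, limma adjusted p = 0.338). The second, dimmer probe sets of PARP14 and OAS3 gave -0.12 and -0.00, and USP18 and IFIT1 had no other. BST2 had the lowest value, at -0.98 (SE 0.50). Without parental xenograft 1, 1 gene passed, with a value below 0, against 0.0809% of all genes. With parental culture 2 left out, 1 passed with a value above 0, against 0.941% of all genes. Each group enters 3 of the 5 comparisons, so they are not independent of each other.

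**Figure D4:**
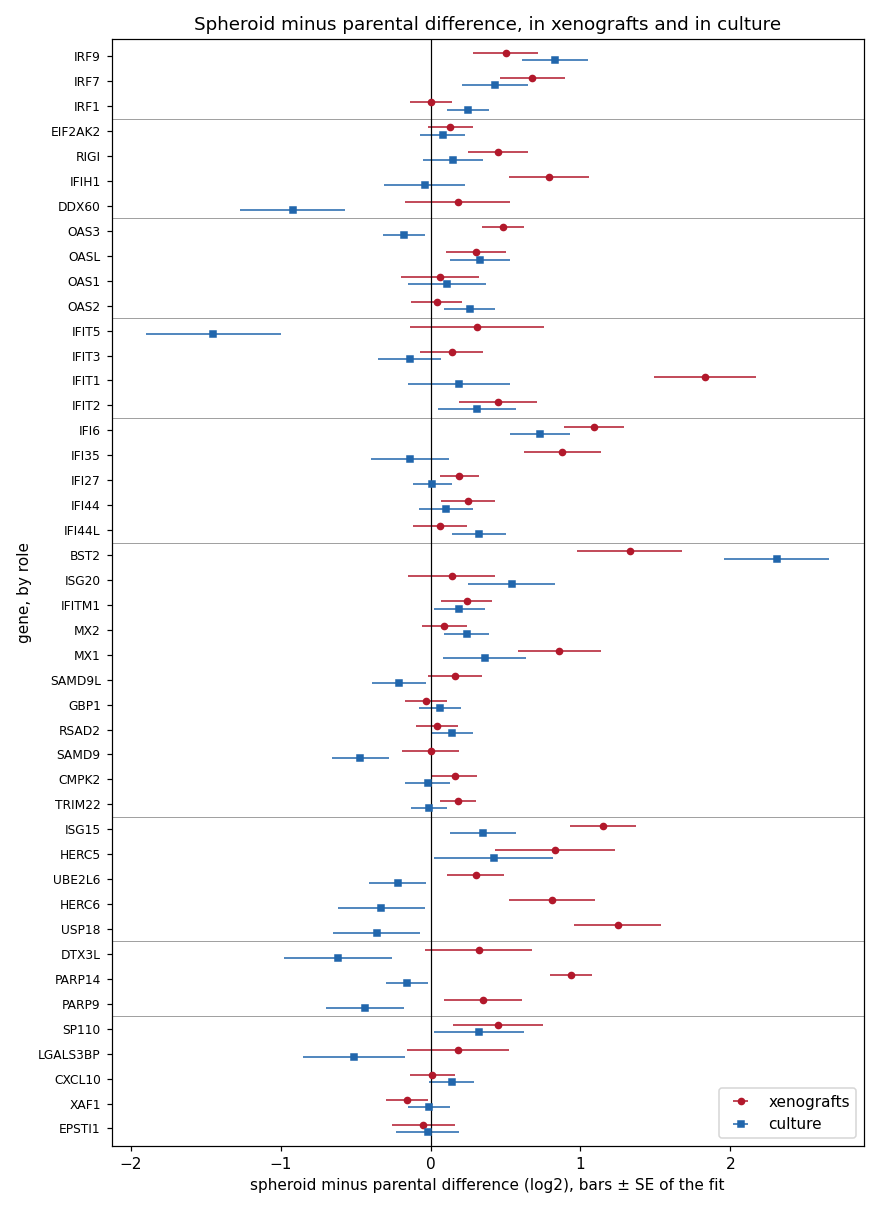
Rows are the 44 genes by role, and the x axis is the spheroid minus parental difference (log2) with bars of ± 1 SE of the fit, circles for xenografts and squares for culture. Circles lie right of 0 for 40 genes, led by IFIT1 at 1.83, while squares lie on both sides, from IFIT5 at -1.45 to BST2 at 2.31.

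The upstream genes of the pathway were read from a list of 84 other interferon genes, of which 78 had a value. None of the 78 passed between xenografts, between spheroid xenografts and spheroid cultures, or in the interaction. Of all genes only 0.233%, 0.0202% and 0.137% passed there, so a count of none is near the share of all genes. Of 8 interferon ligands with a value none passed in any comparison, against 0.0202% to 3.47% of all genes. IFNA1, IFNA2, IFNK and IFNG were below the lower quartile on all 12 arrays, so that little or no signal was read for them. IFNE was below it on 5 arrays and IFNL2 on 1, and IFNB1 and IFNL1 on none. IFNB1, the type I interferon of most cell types, had 5.11, 4.85 and 5.04 in spheroid xenografts, against 5.64, 5.10 and 4.95 in parental xenografts. The receptor subunit IFNAR2 was higher in spheroid cultures than in parental cultures, with 9.26, 9.49 and 9.28 against 8.73, 8.77 and 8.80 (difference 0.58, SE 0.12, limma adjusted p = 0.0307). Its partner IFNAR1 had 6.90, 6.42 and 7.43 in spheroid cultures, against 7.79, 8.58 and 7.79 in parental cultures (difference -1.14, SE 0.30, limma adjusted p = 0.072). Between xenografts IFNAR2 differed by 0.06 (SE 0.12) and IFNAR1 by -0.25 (SE 0.30). The kinase TYK2 had 9.48, 9.47 and 9.47 in spheroid xenografts, against 9.03, 9.08 and 8.68 in parental xenografts (difference 0.54, SE 0.21, limma adjusted p = 0.489), and JAK1 differed by 0.13 (SE 0.22). STING1, the adaptor of cytosolic DNA sensing, had 7.65, 7.32 and 7.21 in spheroid cultures and 7.20, 7.30 and 7.15 in parental xenografts, against 8.26, 8.12 and 8.01 in parental cultures. It was lower than in parental cultures both in spheroid cultures (difference -0.74, limma adjusted p = 0.0447) and in parental xenografts (difference -0.91, limma adjusted p = 0.0149). A further 41 interferon-stimulated genes outside the list of 44 had a median difference between xenografts of 0.05, with 24 above 0 and 17 below.

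A tumour holds host cells beside the line, and in such bulk samples fewer cells of a type and less RNA per cell cannot be told apart. The array carries human probes, and whether host transcripts reach them was not tested. Markers of myeloid cells, lymphocytes, plasmacytoid dendritic cells and endothelium gave no called gene in any comparison, against 0.0202% to 3.47% of all genes. Over 14 myeloid markers the summed log2 level was 78.9 to 82.0 in spheroid xenografts, against 77.1 to 84.7 in parental xenografts, and it was 80.0 to 82.7 in spheroid cultures, against 75.6 to 82.5 in parental cultures. Over 5 plasmacytoid dendritic markers it was 29.5 to 30.2 in spheroid xenografts, against 28.1 to 30.2 in parental xenografts. CLEC4C, which defines that cell type, was below the lower quartile on all 12 arrays, while the other plasmacytoid dendritic markers were below it on none. Over 12 fibroblast markers the sum was 74.8 to 75.8 in spheroid xenografts, against 75.8 to 80.5 in parental xenografts, and FAP was lower in spheroid xenografts (5.92, 5.96 and 5.87, against 7.58, 6.78 and 7.45 in parental xenografts, difference -1.35, limma adjusted p = 0.0365). In the interaction FAP stood at -1.94 (limma adjusted p = 0.0416). The part of fibroblast content in the differences of the interferon-stimulated genes was not tested. The cell line's own VIM stayed at 13.6 to 14.7 on all arrays, while KRT18 was at 10.3 to 13.0, KRT8 at 6.66 to 9.17, and EPCAM was below the lower quartile on all 12 arrays.

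For 23 of the 44 genes more than 1 probe set was on the array, 34 probe sets beyond those chosen. In the comparison between xenografts 24 of these 34 gave a difference of the same sign as the chosen probe set, and in the comparison of spheroid xenografts with spheroid cultures 18 did. BST2, ISG15, IFIT1, IFI6, IFI35, USP18, MX1, IRF7, IRF9 and UBE2L6 had no other probe set, so their values rest on a single one.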

How the data were processed

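Biotin-labelled cRNA from 2 µg of RNA per sample was hybridised to 12 arrays, per the labels' protocols. The authors deposited log2 values for each probe set, and the submitters' processing notes name RMA and affy. The sources used here give no versions and do not say which arrays were normalised as one set. The table holds 54675 probe sets. Of these, 41091 have 1 gene symbol, updated by gene number through a GRCh38.p14 gene table for 41037.

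Each of 19775 genes was represented by its probe set of highest mean, with no filter on dim genes. The 12 arrays entered a linear model of 4 group means, leaving 8 residual degrees of freedom, in limma 3.58.1 (R 4.3.3) with eBayes moderation. The p-values are two-sided and Benjamini-Hochberg adjusted over all 19775 genes in each of 5 comparisons, and a gene passed at an adjusted p under 0.05. The script was tested on simulated data. The number of arrays limits the precision, with a median SE of 0.20 for a group difference and 0.28 for the interaction.

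Samples with the same replicate number in the titles deviated together from their group means between xenografts (r of 0.182, 0.213 and 0.482 across genes) and between spheroid samples (0.341, 0.333 and 0.431). In the other comparisons r was positive for replicate 1 only, at 0.333, -0.236 and -0.298 in culture and 0.192, -0.454 and -0.434 in parental cells. The pairing therefore comes from the data, and the replicate block is given for those 2 comparisons.

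The members and lists were chosen with earlier results of these data known. All members may be named, and alternatives were recomputed for members that passed or, where fewer than 4 did, for the 4 with the lowest p. A gene outside the list was named only if it passed a test, or belongs to the ligands, receptors or Janus kinases. CLEC4C, VIM and EPCAM were named to describe marker lists, after their values were seen. The alternatives were 12 fits that each leave out 1 array and 14 others of normalisation, probe set choice, dim genes, pairing, arrays in the fit, moderation and array quality.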

Additional observations from a re-analysis of the deposited data

Results flagged for a closer look

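For 2 genes the xenograft minus culture difference had opposite directions in spheroid and in parental cells, with no overlap of arrays in either. This pattern was looked for among the interferon-stimulated genes only. Its share of all genes was not counted, so whether 2 is more than that share cannot be said. For PARP14 the 3 spheroid xenografts lay above the 3 spheroid cultures while the 3 parental xenografts lay below the 3 parental cultures, and the difference of the differences was 1.10 (SE 0.20, limma adjusted p = 0.0606). For USP18 the same arrangement gave 1.61 (SE 0.41, limma adjusted p = 0.205), and 1.18 without parental xenograft 1, whose value of 5.11 was the lowest. In neither gene did the test of the difference pass in the fit of all 12 arrays. A second, dimmer PARP14 probe set (mean 5.31) gave -0.18 in spheroid cells, -0.06 in parental cells and -0.12 for the difference of the differences. The opposite directions of PARP14 thus rest on the chosen probe set, and USP18 had no other.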

How the results depend on the processing

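The 20 results on single members were recomputed 508 times in all. The direction never reversed, but no alternative used the second probe set of PARP14 or of OAS3 alone. That of PARP14 gave -0.18 in spheroid cells and -0.12 in the interaction, against 0.64 and 1.10 for the chosen one. In 425 recomputations the result stayed on its side of the threshold, in 72 it passed where it had not before, and in 11 it no longer passed. BST2 between cultures no longer passed in 1, with parental cultures 1 and 2 both left out (adjusted p = 0.0663).

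Counts of members that passed were less stable. In the order culture, xenografts, parental cells and spheroid cells, quantile normalisation over all arrays gave 3, 2, 3 and 1. The shares of all genes were 5.54%, 0.268%, 5.96% and 0.202%. Quantile normalisation within culture and within xenografts gave 3, 2, 3 and 2, against 5.4%, 0.349%, 6.47% and 0.491% of all genes. Cyclic loess gave 3 in culture (against 4.91% of all genes), 2 in parental cells (5.52%), 1 in spheroid cells (0.0961%) and 1 in the interaction (0.475%). The mean of all probe sets gave 2 in culture (2.43% of all genes) and 2 in parental cells (3.26%). Leaving out dim genes gave 4 in xenografts (0.371%). Array weights gave 7, 12, 8, 11 and 7 in the 5 comparisons, against 10.6%, 6.1%, 11.8%, 4.63% and 4.53% of all genes. The interquartile range as a covariate gave 5, 7, 5, 4 and 1, against 8.85%, 1.47%, 9.61%, 1.03% and 1.8%. Fitting only the arrays compared gave 3 in xenografts (0.814% of all genes), 0 in parental cells (0.349%) and 3 in spheroid cells (0.592%). With the replicate block added these were 4, 0 and 10, against 2.48%, 0.344% and 2.99%. The block on all 12 arrays left each count of the main fit as it was. Moderation with a trend and robust priors gave 2 in xenografts (0.354%). Leaving out both parental cultures 1 and 2 keeps only parental culture 3 in its group. The members' median differences were then 0.08 in culture, 0.27 in xenografts, -0.11 in parental cells and 0.10 in spheroid cells. Over all genes they were -0.04, 0.02, -0.10 and -0.05. Leaving out 1 array gave 1 to 2 in culture (0.389% to 4.31% of all genes) and 0 to 4 in xenografts (0.0202% to 0.708%). It gave 0 to 3 in parental cells (1.25% to 8.05%), 0 to 2 in spheroid cells (0.00506% to 0.288%) and 0 to 1 in the interaction (0.0101% to 0.941%). The causes were not tested.

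The members' median difference between xenografts was 0.18 to 0.34 over all alternatives. That between spheroid xenografts and spheroid cultures was 0.03 to 0.26, with 0.26 when dim genes were left out. Over all genes the number that passed ranged from 15 to 2095 in culture, 4 to 1206 in xenografts, 68 to 2343 in parental cells, 1 to 915 in spheroid cells and 2 to 896 in the interaction. Low signal limits what can be said of the 8 dim members.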
